A study of Mus musculus with 4 samples.

Results

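The genes described here are the cyclins, kinases and inhibitors that control the G1 phase of the cell cycle: Ccnd1, Ccnd2, Ccnd3, Ccne1, Ccne2, Cdk4, Cdk6, Cdkn1b, Cdkn2a and Cdkn2c. They were taken by gene symbol, which gave 21 of the 22690 probe sets on the array and 10 of the 12393 named genes. RNA came from primary mouse embryonic fibroblasts, grown from e14.5 embryos and treated while subconfluent for 6 h at 37 °C under 5% CO2, in medium brought to the oxygen level beforehand. The groups were tri-CH1 cells at 0.1% oxygen (hypoxia), tri-CH1 cells at 21% oxygen (normoxia), wild-type cells at 0.1% oxygen and wild-type cells at 21% oxygen, with 1 array each. In tri-CH1 cells the CH1 domain is deleted from each p300 allele and from 1 of the CBP alleles, so 1 CBP allele keeps it. The labels give neither the number of embryos nor the number of cultures behind an array. With 1 array per group there is no replicate error and no test, differences between cultures, embryos or arrays cannot be told apart from those between groups, and the number of arrays limits the precision.

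Cells commit to division in G1, when D-type cyclins bound to Cdk4 or Cdk6, and then E-type cyclins bound to Cdk2, phosphorylate the retinoblastoma proteins and so release the E2F transcription factors. The INK4 inhibitors, among them the products of Cdkn2a and Cdkn2c, bind Cdk4 and Cdk6, while p27, the product of Cdkn1b, acts on cyclin E-Cdk2. The p300 and CBP coactivators bind many transcription factors, and their CH1 domain is a docking site for HIF-1α, the factor that accumulates when oxygen is low.

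Each array had been scaled to a target signal of 500, with scale factors between 3.46 and 10.3. The background after scaling was 393 and 343 on the tri-CH1 arrays (hypoxia, normoxia) and 246 and 139 on the wild-type arrays, and the wild-type normoxia array came from a different lot than the other 3. Lot therefore cannot be told apart from oxygen in wild-type cells or from genotype in normoxia. Differences in hypoxia response between genotypes also use that array. The background after scaling was larger on both tri-CH1 arrays, so at either oxygen level it cannot be told apart from genotype. Signals under 200 were raised to 200. A gene was counted where at least 1 of the arrays compared reached 500, and was called at 2-fold or more. Only called differences are described as a rise, a fall, higher or lower. All 9 measured fibroblast markers reached 500, with summed signals between 124251 and 146314. Of the markers of other cell types, 3 of 8 for epithelium and 1 of 5 for blood reached 500, and none of 5 for endothelium, 5 for muscle or 6 for nerve did. Of these lists, Epcam and Cdh1 (epithelium), Pecam1 (endothelium) and Ptprc (blood) lay at 36.7, 38.3 and 111 or below on every array. Other genes of the same lists were brighter. Krt18 (epithelium) lay between 269 and 588 and Kdr (endothelium) between 302.2 and 390.5. Adgre1 and Cd68 (blood) lay between 176 and 364 and between 178 and 213.5. The blood marker at 500 was the macrophage receptor gene Csf1r, between 625 and 701 on all 4 arrays, and the summed blood signal was between 1094 and 1530. The fibroblast surface protein gene Thy1 moved with genotype, at 3274 and 3837 in tri-CH1 cells (hypoxia, normoxia) against 12389 and 13148 in wild-type cells. The collagen gene Col1a1 was 2.02-fold higher in tri-CH1 than in wild-type cells in hypoxia, and the growth factor receptor gene Pdgfrb fell 2.58-fold with hypoxia in wild-type cells. The other Col1a1 probe set gave a log2 difference of 0.65, short of 2-fold. The other Pdgfrb probe set gave -0.94, without reaching 500 on either wild-type array. The summed signal of 8 epithelial markers was 3704 and 1673 in tri-CH1 cells (hypoxia, normoxia) and 5235 and 1348 in wild-type cells. The keratin gene Krt8 fell with hypoxia in tri-CH1 cells, to 192 against 502 in normoxia. It was at 332 and 398 in wild-type cells (hypoxia, normoxia), so only the tri-CH1 normoxia array reached 500. Its other probe sets lay at 68.6 or below on every array. The keratin gene Krt19 rose with hypoxia in both genotypes, at 2676 and 423 in tri-CH1 cells (hypoxia, normoxia) and 3881 and 145 in wild-type cells. The part of these differences in the results below was not tested. All 8 measured hypoxia-inducible genes taken as a check rose in both genotypes, with median log2 changes of 3.20 in tri-CH1 and 3.39 in wild-type cells. The tri-CH1 change less the wild-type one was below 0 for 6 of the 8, with a median of -0.48. Tri-CH1 against wild type in hypoxia was below 0 for 7 of the 8, with a median of -0.88. Over all counted genes 47.0% and 44.9% were below 0 in these comparisons. None of the 8 was called in either.

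Ccnd1, Ccnd2 and Cdkn2c passed 2-fold between genotypes and Cdkn1b passed it with oxygen. Of the 10 genes, 6 reached 500 on at least 1 array: Ccnd1, Ccnd2, Ccnd3, Cdk4, Cdkn1b and Cdkn2c. Ccne1 and Ccne2 stayed between 150 and 309 and between 153 and 283, and Cdk6 and Cdkn2a stayed under 200 on all 4 arrays. The 6 genes were counted in every comparison except that between genotypes in normoxia, where 5 were, without Cdkn1b. Shares given beside the counts are of counted genes only. Hypoxia raised 1 of the 10 genes in wild-type cells, Cdkn1b, and lowered none, where 3.05% of the 4125 genes counted rose and 1.19% fell. In tri-CH1 cells hypoxia moved none of the 10 past 2-fold, where 3.19% of 4358 genes rose and 0.987% fell. In hypoxia, tri-CH1 cells had 2 of the 10 genes higher than wild-type cells, Ccnd1 and Cdkn2c, and 1 lower, Ccnd2, where 3.76% of 4233 genes were higher and 3.31% lower. In normoxia 1 of the 10 was higher in tri-CH1 cells, Ccnd1, and none was lower, where 3.16% of 4333 genes were higher and 3.48% lower. The hypoxia change in tri-CH1 cells less that in wild-type cells reached 1 log2 unit for none of the 10, where 1.77% of 4645 genes were at 1 or more and 1.46% at -1 or less. The median log2 change over the 10 genes was 0.00 in each of the 4 comparisons, as it was over all 12393 genes, since genes under 200 on both arrays count as 0.

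**Figure D1:**
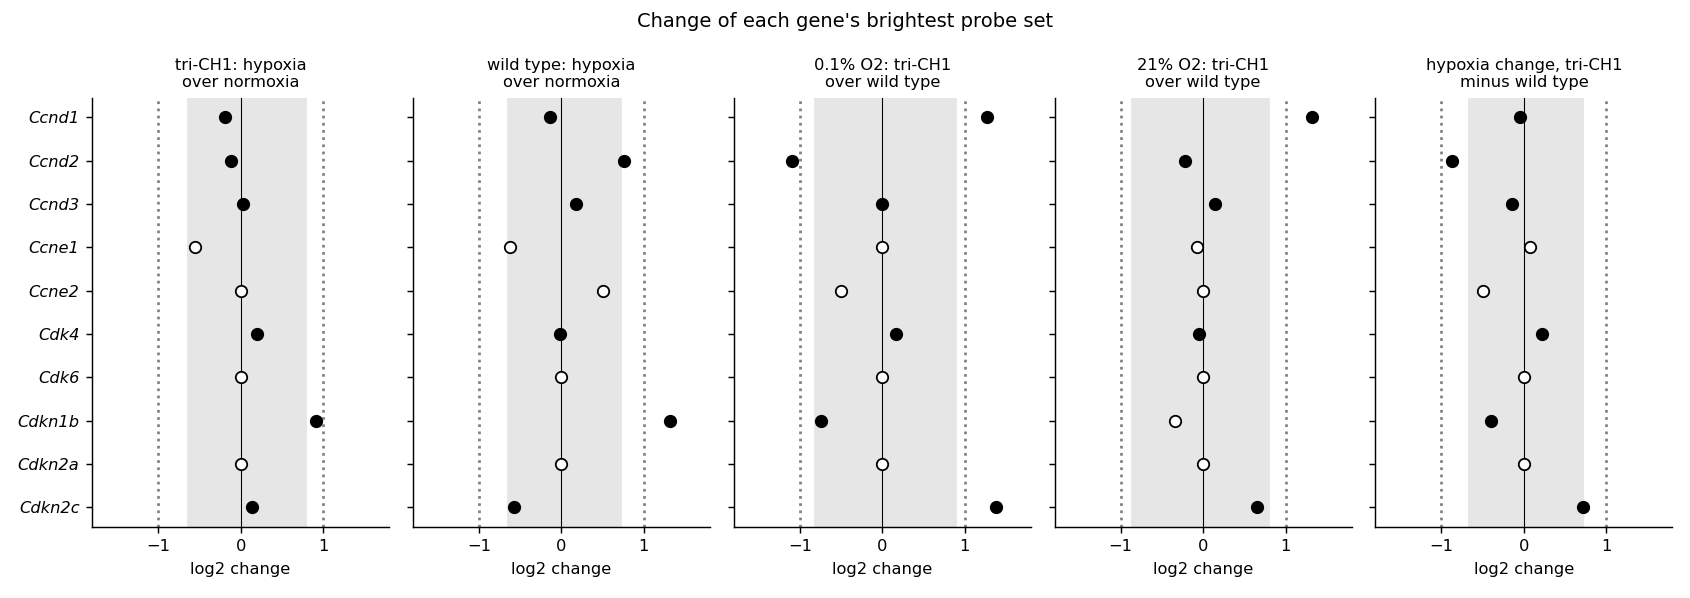
Log2 change of the brightest probe set of each gene, in 1 panel per comparison, with signals under 200 raised to 200. Filled points were counted, open points did not reach 500, the grey band spans the central 90% of all counted genes (5th to 95th percentile) and dotted lines mark 2-fold; Ccnd1 lies past 2-fold in both genotype panels.

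Ccnd1 encodes cyclin D1, the D cyclin that growth factor signals induce in fibroblasts. Its brightest probe set (1448698_at) had a signal of 2387 in tri-CH1 and 989 in wild-type cells in hypoxia. In normoxia the signals were 2725 in tri-CH1 and 1092 in wild-type cells. Both tri-CH1 arrays were thus above both wild-type arrays, by 2.41-fold in hypoxia and 2.49-fold in normoxia. These were the 90th highest of 4233 and the 75th highest of 4333 genotype changes. A further probe set (1417420_at) had 1988 and 405 in hypoxia and 2107 and 724 in normoxia, in tri-CH1 and wild-type cells in each case. Its differences were 4.91-fold and 2.91-fold. The dimmest one (1417419_at) had 750 and 284 in hypoxia, a 2.64-fold difference, and 900 and 495 in normoxia, which is 1.82-fold. So 3 of 3 probe sets were called higher in tri-CH1 cells in hypoxia and 2 of 3 in normoxia. Between probe sets of the same gene the SD of a log2 genotype change was 0.30 in hypoxia and 0.32 in normoxia, over 1353 and 1367 genes; this covers error between probe sets and not between cultures.

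With oxygen, Ccnd1 stayed under 2-fold on every probe set. The log2 hypoxia change of the brightest one was -0.19 in tri-CH1 and -0.14 in wild-type cells. The others had -0.08 and -0.26 in tri-CH1 cells and -0.84 and -0.80 in wild-type cells, the last from a probe set that did not reach 500 on either wild-type array. None of these values is a call, and the probe sets lay farther apart in wild-type than in tri-CH1 cells.

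Ccnd2, which encodes cyclin D2, ran the other way. Its brightest probe set (1416122_at) had 6044 in tri-CH1 and 12865 in wild-type cells in hypoxia, a 2.13-fold lower signal in tri-CH1 cells. In normoxia it had 6541 in tri-CH1 and 7593 in wild-type cells, a log2 difference of -0.22. The wild-type hypoxia array alone stood high, and the other 3 lay between 6044 and 7593. Of the 6 Ccnd2 probe sets at 500 or more, 5 were called lower in tri-CH1 cells in hypoxia. The log2 differences of the 6 ran from -1.26 to -0.75. In normoxia none was called, and they ran from -0.80 to -0.22, all below 0. The remaining probe set of Ccnd2 was at 88.2 and 78.8 in tri-CH1 cells (hypoxia, normoxia) and at 248 and 202 in wild-type cells.

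The log2 hypoxia change of Ccnd2 was -0.11 in tri-CH1 and 0.76 in wild-type cells by the brightest probe set, a difference of -0.87. That was the 99th lowest of 4645 differences in response. Over the 6 probe sets the wild-type change ran from -0.02 to 0.79 and the tri-CH1 change from -0.57 to 0.25. The difference was below 0 on 5 of the 6, and 0.05 on a probe set whose name ends in _s_at, which marks probes shared by several transcripts. Between probe sets of the same gene the SD of this difference was 0.37 over 1505 genes. None of these oxygen changes reached 2-fold.

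The genotype change of Ccnd1 less that of Ccnd2 compares both genes on the same arrays, so array scaling cancels in it. By the brightest probe sets it was 2.36 log2 units in hypoxia and 1.53 in normoxia. Over all 18 pairs of a Ccnd1 and a Ccnd2 probe set it ran from 2.02 to 3.55 in hypoxia. In normoxia it ran from 1.08 to 2.34. The pairs reuse the same few probe sets and arrays. All lie above 0 because each Ccnd1 probe set was above 0 and each counted Ccnd2 one below 0. Such a difference shows unequal change of the cyclins and does not say which of them changed. The genotype comparison in hypoxia does not use the array of the other lot. That in normoxia does, so lot and genotype cannot be told apart there. Background after scaling and genotype cannot be told apart in either comparison. In whole cultures, fewer cells that express a gene and less RNA of it per cell cannot be told apart.

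Ccnd3, which encodes cyclin D3, differed little between arrays. It had 1 probe set, with 1515 and 1485 in tri-CH1 cells (hypoxia, normoxia) and 1513 and 1339 in wild-type cells. All 4 of its log2 changes lay between 0.00 and 0.18. When arrays were scaled to the same median, the genotype difference became -0.08 in hypoxia, against 0.00 as deposited, and -0.07 in normoxia, against 0.15.

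**Figure D2:**
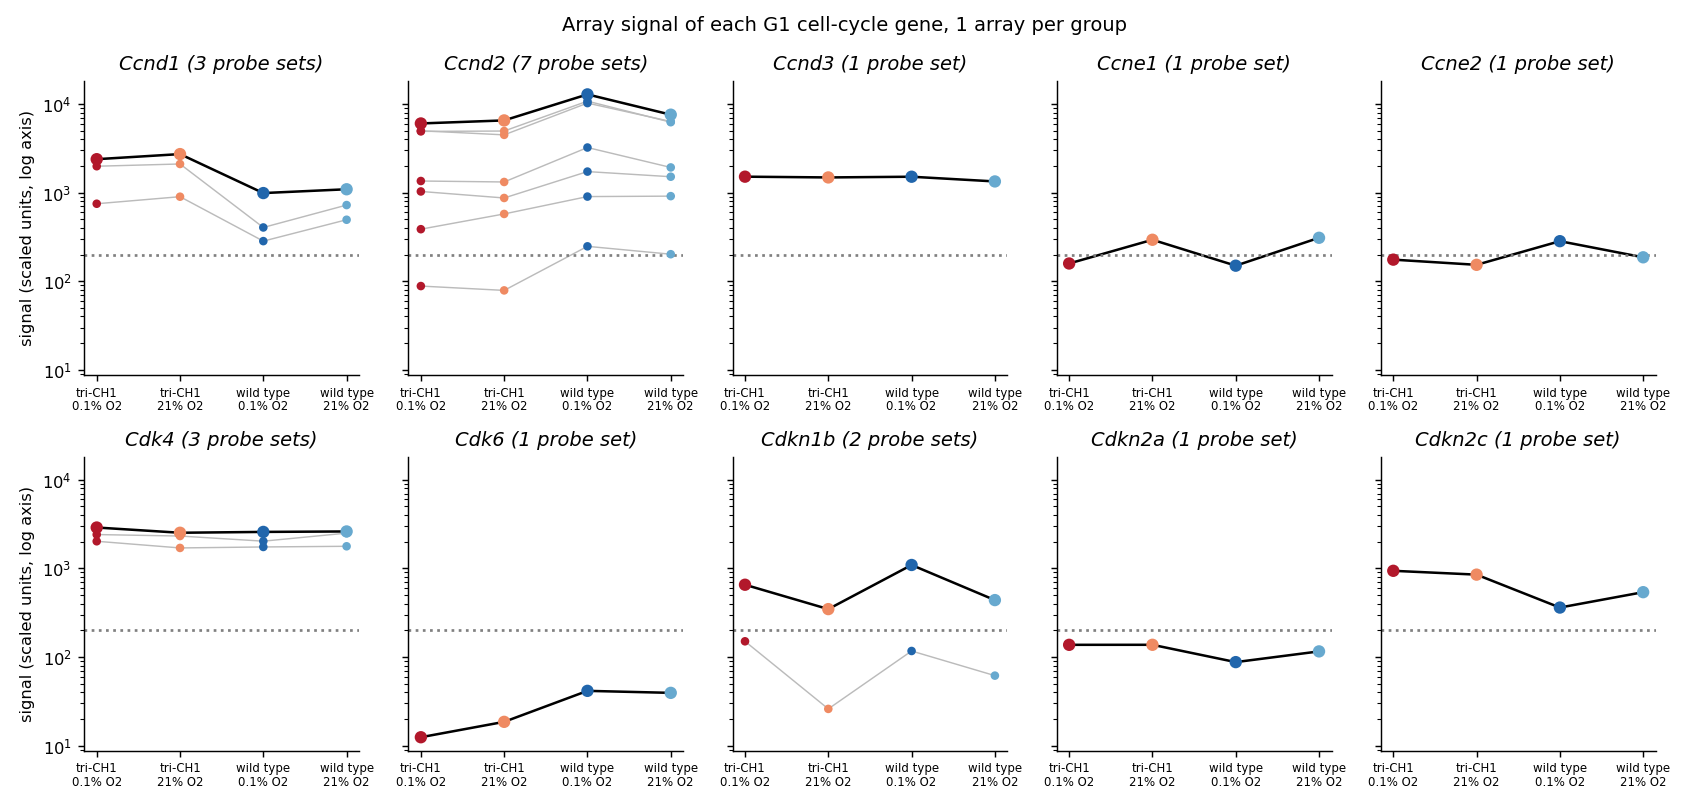
Signal of every probe set of the 10 genes on the 4 arrays (log axis, scaled units), in 1 panel per gene. The black line joins the brightest probe set, grey lines the others, and the dotted line marks 200; Ccnd1 is higher on both tri-CH1 arrays, Ccnd2 stands high on the wild-type hypoxia array and Cdkn1b is higher in hypoxia in wild-type cells, with 1.88-fold in tri-CH1 cells short of a call.

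**Figure D3:**
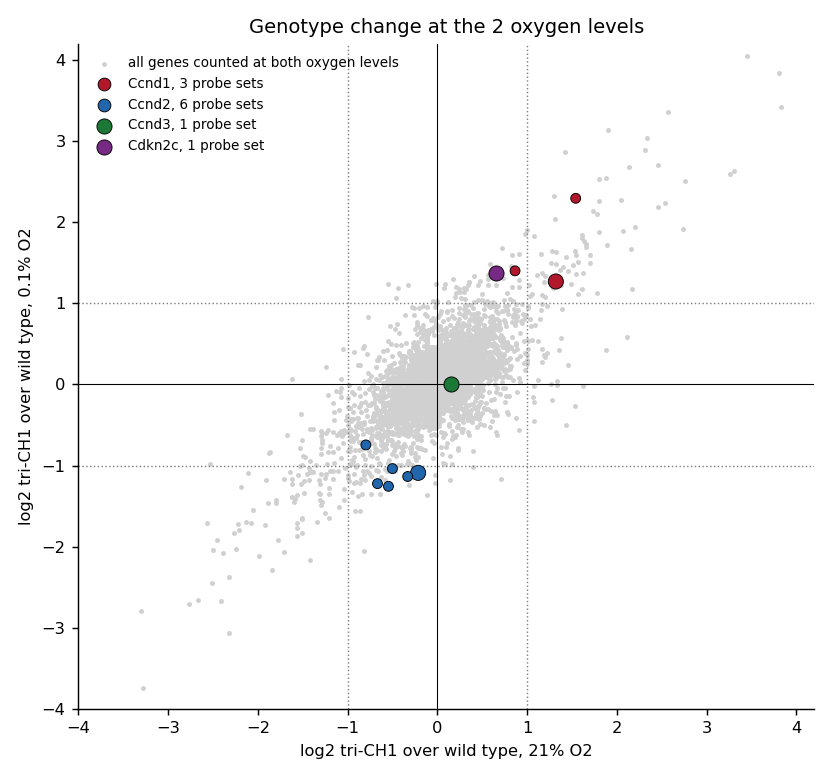
Log2 change of tri-CH1 over wild type in normoxia (horizontal) and hypoxia (vertical), comparisons that share no array, for all genes counted in both (grey) and for each counted probe set of Ccnd1, Ccnd2, Ccnd3 and Cdkn2c, with the brightest drawn larger and 2-fold dotted. The 3 Ccnd1 probe sets lie at the upper right and the 6 of Ccnd2 at the lower left.

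The E-type cyclins, which bind Cdk2 late in G1, were dim. Ccne1 had 159 and 294 in tri-CH1 cells (hypoxia, normoxia) and 150 and 309 in wild-type cells. The hypoxia signal was the smaller in each genotype and lay under 200, so the log2 changes of -0.56 in tri-CH1 and -0.63 in wild-type cells depend on raising it to 200. Without that step they were -0.89 and -1.05, from signals too dim for a call. Ccne2 had 175 and 153 in tri-CH1 cells and 283 and 186 in wild-type cells, in the same order. With 3 of its 4 signals under 200 it gave no usable change. Neither cyclin reached the minimum of 500, so neither entered a count.

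Upstream sequence is shown for the genes whose values follow: the inhibitor gene past 2-fold with oxygen (Cdkn1b), the kinase gene with little change (Cdk4) and the inhibitor gene past 2-fold with genotype (Cdkn2c, which has a pair of listed starts). The RefSeq promoter table (GRCm38.p6) matched 7 of the 10 genes, with 10 starts. Each sequence is the 250 bases before the start, read 5′ to 3′ along the gene, and capitals mark matches on either strand to ACGTG or GCGTG (the core letters of HIF sites), CACGTG (the E-box, which contains ACGTG) and TAAACA (core letters of forkhead sites).
Cdkn1b, chr6:134920151-134920400, plus strand: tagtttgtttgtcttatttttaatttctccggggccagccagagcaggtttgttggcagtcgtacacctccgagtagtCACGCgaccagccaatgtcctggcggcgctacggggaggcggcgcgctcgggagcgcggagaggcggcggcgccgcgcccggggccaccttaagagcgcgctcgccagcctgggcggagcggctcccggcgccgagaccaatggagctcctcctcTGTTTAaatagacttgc
Cdk4, chr10:127063285-127063534, plus strand: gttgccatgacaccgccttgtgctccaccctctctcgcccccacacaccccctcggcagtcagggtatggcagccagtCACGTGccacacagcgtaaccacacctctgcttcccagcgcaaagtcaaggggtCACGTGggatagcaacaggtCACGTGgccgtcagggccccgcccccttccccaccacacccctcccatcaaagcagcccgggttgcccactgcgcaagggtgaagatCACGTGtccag
Cdkn2c, upstream start, chr4:109666757-109667006, minus strand: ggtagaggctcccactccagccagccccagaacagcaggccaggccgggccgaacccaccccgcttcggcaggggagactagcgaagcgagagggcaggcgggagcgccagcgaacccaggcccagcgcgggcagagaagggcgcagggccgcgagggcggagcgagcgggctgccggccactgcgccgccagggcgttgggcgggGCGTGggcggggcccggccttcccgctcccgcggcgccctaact
Cdkn2c, downstream start, chr4:109665373-109665622, minus strand: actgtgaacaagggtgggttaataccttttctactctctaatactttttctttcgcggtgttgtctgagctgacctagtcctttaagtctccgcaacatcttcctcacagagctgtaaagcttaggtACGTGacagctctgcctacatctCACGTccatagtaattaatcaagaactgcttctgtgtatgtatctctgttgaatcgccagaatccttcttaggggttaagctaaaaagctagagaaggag
The Cdkn1b sequence held GCGTG on the opposite strand, from 172 bases before the start, and TAAACA on the opposite strand, from 17 bases before it. Cdk4 held CACGTG 4 times, from 172, 118, 98 and 11 bases before its start. The upstream start of Cdkn2c held GCGTG from 44 bases before it, and the downstream start held ACGTG once on each strand, from 123 and 100 bases before it. Among all 32851 windows of this length, 16.6% held ACGTG, 28.2% GCGTG, 6.02% CACGTG and 12.0% TAAACA. These matches describe letters and not binding.

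Cdk4, the kinase partner of the D cyclins, held nearly the same level throughout. Its brightest probe set, whose _x_at ending marks probes that may match other transcripts, had 2891 and 2523 in tri-CH1 cells (hypoxia, normoxia) and 2579 and 2610 in wild-type cells. Its other probe sets had 2408 and 2317, and 2022 and 1701, in tri-CH1 cells. They had 2027 and 2498, and 1744 and 1775, in wild-type cells. Log2 hypoxia changes over the 3 probe sets ran from 0.06 to 0.25 in tri-CH1 and from -0.30 to -0.02 in wild-type cells. The range over arrays was thus narrow, and the genotype difference in normoxia (-0.05) and the hypoxia change in wild-type cells (-0.02) were above 0 under cyclic loess. Cdk6, the other kinase of the D cyclins, had its only probe set at 12.4 and 18.5 in tri-CH1 cells and at 41.4 and 39.3 in wild-type cells, too dim for a change.

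Cdkn1b was the gene of the set that rose with hypoxia. Its brighter probe set (1434045_at) had 653 in hypoxia and 347 in normoxia in tri-CH1 cells, and 1092 in hypoxia and 438 in normoxia in wild-type cells. The hypoxia signals were above both normoxia signals, with the wild-type one highest. The change was 1.88-fold in tri-CH1 cells, short of 2-fold, and a 2.49-fold rise in wild-type cells. These were the 163rd highest of 4358 and the 86th highest of 4125 hypoxia changes, in genotypes that share no array. In wild-type cells the normoxia array came from the other lot, so lot and oxygen cannot be told apart there. The tri-CH1 change was smaller by 0.40 log2 units, against an SD between probe sets of 0.37 for that difference. Against wild type, the tri-CH1 signal had a log2 difference of -0.74 in hypoxia and -0.34 in normoxia, and the normoxia pair did not reach 500. The dimmer probe set of Cdkn1b (1419497_at) stayed under 200, at 150 and 25.9 in tri-CH1 cells (hypoxia, normoxia) and 117 and 61.5 in wild-type cells. It gave no usable change.

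Cdkn2c encodes p18, an INK4 inhibitor of Cdk4 and Cdk6. Its single probe set (1416868_at) had 938 in tri-CH1 and 361 in wild-type cells in hypoxia, a 2.60-fold higher signal in tri-CH1 cells and the 71st highest of 4233 genotype changes. In normoxia it had 850 in tri-CH1 and 538 in wild-type cells, which is 1.58-fold. Both tri-CH1 arrays were above both wild-type arrays. The log2 hypoxia change was 0.14 in tri-CH1 and -0.58 in wild-type cells, so that the genotype difference was wider in hypoxia. The difference of 0.72 between these changes was the 231st highest of 4645 and has no second probe set beside it. Cdkn2a, which encodes p16 and p19Arf from alternative first exons, had 137 and 137 in tri-CH1 cells (hypoxia, normoxia) and 87.4 and 116 in wild-type cells. These signals lie under 200, and the array does not separate the products.

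The 6 lists around the G1 genes hold 77 measured genes, each taken once. With hypoxia, 1 of 42 counted genes rose and 1 fell in tri-CH1 cells, where 3.19% and 0.987% of all counted genes did. In wild-type cells none of 40 rose and 1 fell, where 3.05% and 1.19% of all counted genes did. These shares are near those of all genes. Of the 24 measured E2F-driven S phase genes, 14 were counted. In tri-CH1 cells 1 of the 14 fell and 13 had a change below 0, and the median log2 change was -0.43. None of them reached 2-fold in wild-type cells, where 14 of 14 were below 0 and the median was -0.38. Over all counted genes 54.1% were below 0 in tri-CH1 and 56.9% in wild-type cells. The member above 0 in tri-CH1 cells was the primase subunit gene Prim1, at 0.39, named after its value was seen. These counts below 0 were the same with equal array medians, with cyclic loess and with quantile normalization. The median over all counted genes was -0.04 in tri-CH1 and -0.06 in wild-type cells. The gene that fell was the licensing factor Cdt1, 2.23-fold, with 657 in hypoxia and 1466 in normoxia in tri-CH1 cells and a log2 change of -0.76 in wild-type cells. Another Cdt1 probe set gave -0.71 and -0.69 in tri-CH1 and wild-type cells, so the call rests on the brighter one. The brightest gene of the list, the replication clamp Pcna, had -0.27 in tri-CH1 and -0.24 in wild-type cells.

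The 9 partner kinases and activators, of which Ccna2 is also in the E2F-driven list, had no gene past 2-fold with oxygen. In each genotype 7 of 9 were below 0, where 54.1% of all counted genes were in tri-CH1 and 56.9% in wild-type cells. The medians were -0.50 in tri-CH1 and -0.27 in wild-type cells, against -0.04 and -0.06 over all counted genes. Cks1b, the brightest of the 9, is a subunit that helps deliver p27 to its ubiquitin ligase. It had -0.57 in tri-CH1 and -0.29 in wild-type cells, and -0.07 and -0.20 by its dimmer probe set. Of the 4 other CDK inhibitors none passed 2-fold. Cdkn1a, the p21 gene and the brightest, had 4884 and 2621 in tri-CH1 cells (hypoxia, normoxia) and 7122 and 4504 in wild-type cells, log2 changes of 0.90 and 0.66. Its dimmer probe set gave -0.11 in tri-CH1 and 0.13 in wild-type cells, so the probe sets disagree. Of 10 retinoblastoma, E2F and DP genes only Tfdp1, a DP partner of the E2F factors, reached 500, with -0.36 in tri-CH1 and -0.40 in wild-type cells. Of 12 ubiquitin ligase genes 5 were counted and none passed 2-fold; Ddb1, an adaptor and the brightest, had -0.02 in tri-CH1 and -0.07 in wild-type cells.

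Of 19 upstream regulators, 12 were counted with oxygen in tri-CH1 cells and 9 in wild-type cells. In tri-CH1 cells 1 rose: Foxo3, a forkhead factor known to activate Cdkn1b. It had 1021 in hypoxia and 366 in normoxia in tri-CH1 cells, a 2.79-fold rise, and 879 and 453 in wild-type cells, a log2 change of 0.96 that passed 2-fold with cyclic loess. Another Foxo3 probe set gave 0.69 in tri-CH1 and 0.62 in wild-type cells, short of 2-fold. In wild-type cells 1 fell: Id1, an inhibitor of basic helix-loop-helix factors, which had 744 in hypoxia and 1613 in normoxia, a 2.17-fold fall, against a log2 change of -0.21 in tri-CH1 cells. Jun, the brightest of the list and a component of AP-1, had 0.67 in tri-CH1 and 0.13 in wild-type cells, and 0.58 and 0.56 by its dimmer probe set. Myc, an activator of Ccnd2 and Cdk4, had 1022 and 695 in tri-CH1 cells (hypoxia, normoxia) and 1051 and 1465 in wild-type cells. Its difference in response of 1.04 was the only one of the 19 at 1 log2 unit or more, and it was under 1 with cyclic loess.

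**Figure D4:**
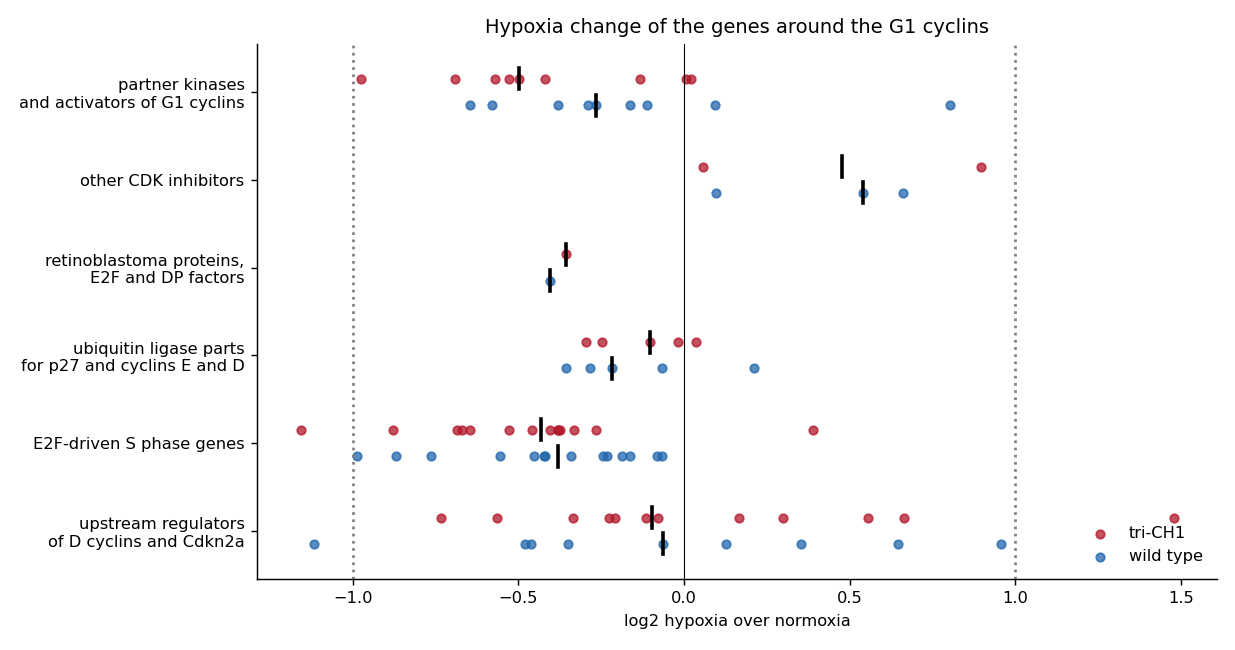
Log2 change of hypoxia over normoxia for the counted genes of 6 lists around the G1 cyclins, 1 point per gene, in tri-CH1 (red) and wild-type cells (blue), with bars at the medians and 2-fold dotted. All 14 E2F-driven S phase genes lie below 0 in wild-type cells and 13 of 14 in tri-CH1 cells.

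Between genotypes, 3 of the 37 counted genes of these lists were higher and 1 was lower in tri-CH1 cells in hypoxia, where 3.76% and 3.31% of all counted genes were. In normoxia 1 of 41 was higher and 1 lower, where 3.16% and 3.48% of all counted genes were. In hypoxia Egr1, an immediate early factor that binds the Ccnd1 promoter, was 2.44-fold higher, with 2258 in tri-CH1 and 926 in wild-type cells. Also in hypoxia, Id1 was 2.40-fold higher, with 1786 in tri-CH1 and 744 in wild-type cells. Mcm6, a subunit of the replicative helicase, was 2.03-fold higher, while its dimmer probe set gave a log2 difference of 0.29, and it was under 2-fold with each of these 3 rescalings of the arrays. Mdm2, the ligase of p53, was 2.06-fold lower in tri-CH1 cells in hypoxia, and its other probe set gave -1.33. In normoxia Ets2, a growth factor responsive factor, was 2.18-fold higher in tri-CH1 cells, with 709 in tri-CH1 and 324 in wild-type cells, a call that scaling to the same median ended. Myc was 2.11-fold lower there, with 695 in tri-CH1 and 1465 in wild-type cells. The E2F-driven genes had a median log2 genotype difference of 0.22 in hypoxia and 0.28 in normoxia, with 9 and 12 of 14 above 0. Over all counted genes the medians were 0.05 and 0.03, and 55.1% and 53.5% were above 0. With arrays scaled to the same median the E2F-driven medians became 0.17 and 0.06, and those of all counted genes -0.04 and -0.21. Scaling arrays to the same median moved the normoxia median of all counted genes to -0.21, with 81 genes higher and 262 lower (23.6% of calls higher) against 137 and 151 (47.6%) as deposited. Ccnd1 was again the 1 gene of the 10 past 2-fold. The same scaling gave 116 rises and 72 falls (61.7% rises) with hypoxia in wild-type cells, against 126 and 49 (72.0%), and moved the median difference in response to 0.18, against 0.03 as deposited.

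Some genes followed the called members closely over the 4 arrays. Likeness was the Euclidean distance between log2 signals less their mean, over 4 arrays and 4644 other genes at 500 or more on an array, with smaller values closer. Nearest to Ccnd1 were the nuclear lamin Lmna at 0.10, the histidine phosphatase Phpt1 at 0.12 and the transcription factor Nfix at 0.14. Lmna had 5109 and 5511 in tri-CH1 cells (hypoxia, normoxia) and 2014 and 2408 in wild-type cells. Nearest to Ccnd2 were the endoplasmic reticulum stress gene Herpud1 at 0.13, the endosomal tether Eea1 at 0.22 and the prostaglandin synthase Ptges at 0.22. Nearest to Cdkn1b were Fem1b at 0.12, Jmjd6 at 0.12 and the adaptor Bcar1 at 0.18; Fem1b had 1730 and 950 in tri-CH1 cells (hypoxia, normoxia) and 2770 and 1077 in wild-type cells. Nearest to Cdkn2c were Bcl7c at 0.10, the carboxylase subunit Pccb at 0.13 and the matrix proteoglycan Dcn at 0.15. With 4 arrays many genes lie close to any given pattern.

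**Figure D5:**
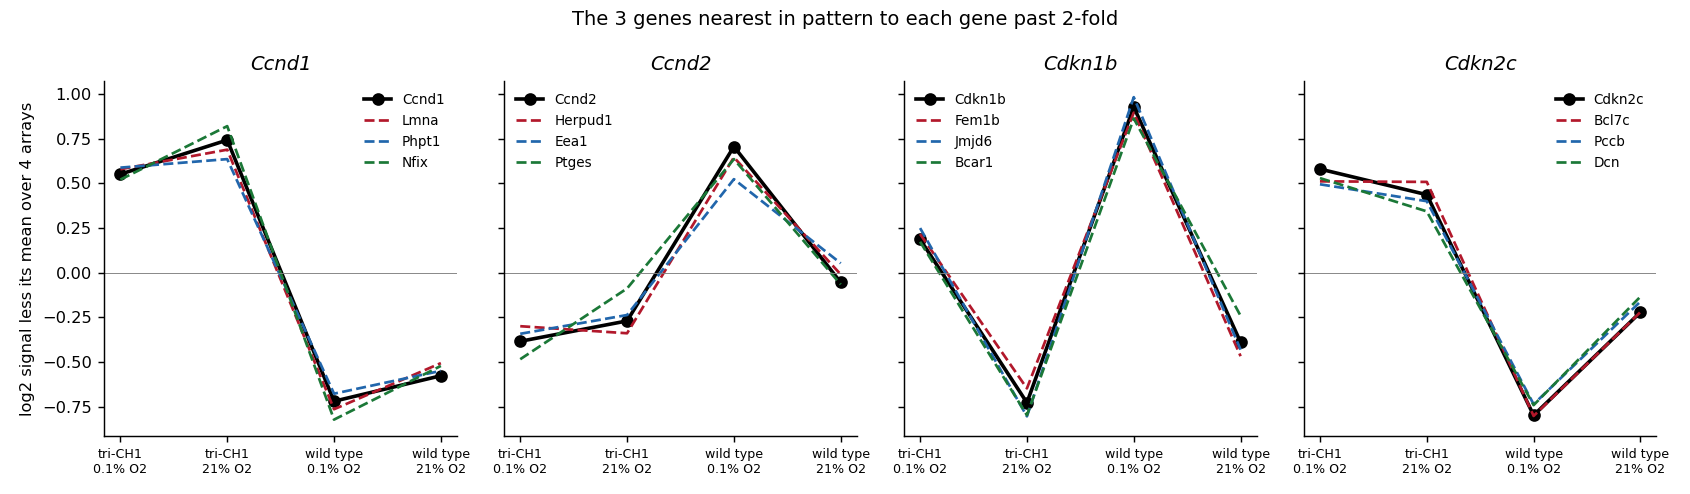
Log2 signal, after signals under 200 were raised to 200, less its mean over the 4 arrays for Ccnd1, Ccnd2, Cdkn1b and Cdkn2c (black) and the 3 nearest genes of each (dashed). Ccnd1 and Cdkn2c are above 0 on both tri-CH1 arrays, Ccnd2 peaks on the wild-type hypoxia array and Cdkn1b peaks on the same array with its lowest point in tri-CH1 normoxia.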

How the data were processed

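Total RNA was measured on 4 Affymetrix mouse arrays, 1 per group. Per the labels, the authors used the array maker's statistical algorithm, which gives each probe set 1 background-corrected signal intensity, and scaled each array to a target of 500; the deposited intensity values are linear. The software version is not given in the sources used here. Gene symbols came from the platform annotation: 20380 probe sets had 1 gene symbol and were used, 691 had several and 1555 none. Each gene took its probe set with the highest mean signal, signals under 200 were raised to 200 before log2, and a gene was counted at 500 or more and called at 2-fold. No statistical test was possible. The code that makes the calls was checked on simulated data, which says nothing of the error of these arrays. The members and lists were chosen with earlier results of these data known. Named genes are all members, each pathway list's called and brightest genes, and the 3 genes nearest in pattern to each called member. The hypoxia check genes are given as counts and medians. Cell type markers named by themselves were chosen after their values were seen. Python 3.11.15, pandas 2.3.3, numpy 2.4.6 and matplotlib 3.10.9 were used, with limma 3.58.1 in R 4.3.3 for quantile normalization and cyclic loess. Promoter sequences are RefSeq's, on GRCm38.p6.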

Additional observations from a re-analysis of the deposited data

Results flagged for a closer look

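With 1 array per group, a hypoxia change of opposite sign in the genotypes was noted for 3 genes at 500 or more, by the brightest probe set. The difference was not tested for any of them. Each difference uses the wild-type normoxia array, which came from the other lot. Ccnd2 had a log2 hypoxia change of -0.11 in tri-CH1 and 0.76 in wild-type cells, a difference of -0.87. The signs were opposite on 2 of its 6 counted probe sets, with both changes above 0 on 3 and both below 0 on 1. Cdk4 had 0.20 in tri-CH1 and -0.02 in wild-type cells, a difference of 0.21, which is within the SD between probe sets of 0.37 for such differences. The signs were opposite on all 3 of its probe sets, with differences from 0.21 to 0.36. With cyclic loess the brightest probe set had 0.20 in tri-CH1 and 0.03 in wild-type cells, so its signs agreed. Cdkn2c had 0.14 in tri-CH1 and -0.58 in wild-type cells, a difference of 0.72.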

How the results depend on the processing

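The alternatives were scaling to the same median, cyclic loess, quantile normalization, a minimum of 250 or 1000, a floor of 100 or 400 or none, a gene's log2 mean across its probe sets, and plain _at probe sets only. Of 100 values that answer a comparison, 99 stayed within 1.5-fold of the count or within the SD between probe sets of the median. The exception was the mean over probe sets, which called 0 of the genes with hypoxia in wild-type cells, because the dim probe set of Cdkn1b pulled its mean under 500. Part of this stability was fixed in advance. The median over the genes does not use the minimum, so a minimum of 250 or 1000 could not move it. Genes under the floor on both arrays count as 0, which holds the median near 0. The values that could not move do not show that a result is stable. A minimum of 1000 left out Cdkn2c, so that 2 of the genes were called between genotypes in hypoxia. In the other alternatives the same genes were called. The log2 change of Cdkn1b in wild-type cells ran from 1.24 to 1.36 where it was counted. That of Ccnd1 between genotypes ran from 1.19 to 1.66 in hypoxia and from 1.10 to 1.39 in normoxia, that of Ccnd2 in hypoxia from -1.17 to -1.01, and that of Cdkn2c in hypoxia from 1.23 to 1.38. Of 280 values of single genes 5 moved by more than the SD between probe sets, all for Ccnd1 and Ccnd2 with the mean over probe sets. Many of the others could not move, since a minimum decides whether a gene is counted and leaves its log2 change as it was. Ccnd3 has 1 probe set, a plain _at one, with signals above 1000 on every array. Its values could change only with equal medians, cyclic loess or quantile normalization. Over all genes, counts moved by over 1.5 times as follows. Rises and falls with hypoxia in tri-CH1 cells were 139 and 43 as reported; falls were 18 with a floor of 400, 70 with a minimum of 250, 28 with cyclic loess, 26 with equal medians and 27 with plain _at probe sets, and a minimum of 1000 gave 86 and 9. Falls in wild-type cells were 49, against 24 with a floor of 400 and 19 with a minimum of 1000. Between genotypes in hypoxia 159 were higher and 140 lower; 101 were higher with a floor of 400, and a minimum of 1000 gave 79 and 87. In normoxia 137 were higher and 151 lower; 85 were higher with a floor of 400, a minimum of 1000 gave 66 and 92, and equal medians gave 81 and 262. Differences in response numbered 82 above and 68 below, against 41 and 34 with a floor of 400, 126 and 156 with a minimum of 250, 32 and 21 with a minimum of 1000 and 146 and 45 with equal medians; 38 were below when probe sets were averaged, and 45 with plain _at probe sets. No paired analysis was possible because each group has 1 array. Signals near background limit what can be said of Ccne1, Ccne2, Cdk6 and Cdkn2a.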
